A study of Mus musculus with 14 samples.

Results

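The MAP kinase phosphatases are the dual-specificity phosphatases that switch off ERK, p38 and JNK, and 10 of them were followed here in wounded mouse fibroblasts: Dusp1, Dusp2, Dusp4, Dusp5, Dusp6, Dusp7, Dusp8, Dusp9, Dusp10 and Dusp16. They were taken by gene symbol from the 43472 genes listed, and all 10 were found. A mean normalised read count of at least 10 was reached by 9 of the 10 in each table, and Dusp2 was the exception. Primary fibroblasts from the tail end of C57BL/6 mice were grown as a monolayer, scratched with a pipette tip and either left untreated or given autologous micrograft (AMG), a soluble extract of disrupted mouse skin biopsies from which cells had been filtered and spun out, at a 1:10 dilution in the medium. All groups carried the scratch and were cultured in medium with fetal bovine serum. The Untreated and the AMG-treated group were each collected at 1, 5, 12 and 24 h in replicate 1, and at 5 h also in replicates 2, 3 and 4, which gave 14 libraries. The labels give no age or sex, and do not say which animal or culture a replicate number stands for. If the replicates were not separate cultures, the p-values measure only the spread between these libraries. A scratched fibroblast monolayer has no layered skin around it, and a treatment with skin extract carries many factors at once.

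MAP kinases are switched on when a MAP kinase kinase phosphorylates a threonine and a tyrosine in their activation loop, and the dual-specificity phosphatases remove both phosphates. Most of these phosphatases are made on demand: their genes are transcribed soon after the pathway fires, and the new protein then shuts the pathway down again. In skin wounds ERK signalling is known for cell migration and proliferation, and p38 and JNK for the response to stress and inflammation. The members were grouped by the kinase they prefer. Dusp5, Dusp6, Dusp7 and Dusp9 act mainly on ERK, Dusp5 in the nucleus and the other 3 in the cytoplasm. Dusp8, Dusp10 and Dusp16 act mainly on p38 and JNK. Dusp1, Dusp2 and Dusp4 are nuclear, act on several MAP kinases and were kept apart.

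Depth ranged from 12545537 to 34696529 reads per library. All 9 fibroblast markers, among them Col1a1, Pdgfra and Vim, were expressed in every group, with a summed normalised count at 5 h (replicates 2 to 4) of 447877 to 626065 in untreated and 350882 to 453651 in treated libraries. The 7 keratinocyte markers summed to 156 to 310 in the untreated and 90.2 to 149 in the treated libraries, with Krt5, Krt14 and Krt1 at 0 in both groups. The 6 leukocyte markers found summed to 11.1 to 108 and 24.2 to 92.6. The 5 skeletal muscle markers summed to 2898 to 7291 and 1747 to 5494 with Myh4 and Myog at 0. The 5 adipocyte markers summed to 259 to 1163 and 338 to 2067 with Adipoq at 0, and the 5 red blood cell markers to at most 1.13. Only 1 muscle and 1 adipocyte marker reached a mean normalised count of 10 over these libraries, so each of these 2 sums is mostly that of 1 gene. In replicate 1, over all times, the fibroblast markers summed to 306019 to 397984 in untreated and 217865 to 313609 in treated libraries. Keratinocyte markers summed to 295 to 747 and 257 to 424, and leukocyte markers to 85.2 to 158 and 55.8 to 104. Muscle markers summed to 702 to 2041 and 275 to 1697, and adipocyte markers to 424 to 1393 and 372 to 1208. Red blood cell markers summed to 0 and to 0 to 10.8. The part of these cell types in the phosphatase results was not tested. In bulk RNA, fewer cells of a type and less RNA per cell cannot be told apart. A pair of libraries of replicate 1 stood apart: ribosomal protein genes took 6.33% of the reads of the untreated 5 h library and 4.62% of the treated 1 h library, against 2.02% to 3.09% in the other 12. In replicates 2 to 4 at 5 h this share was 2.02% to 2.53% in untreated and 2.82% to 3.09% in treated libraries, and its part in the results was not tested. The treated to untreated ratio of a gene also went with its exonic length, with a Spearman rho across genes of -0.43 at 1 h and 0.42 at 5 h in replicate 1, and of -0.32, -0.21 and -0.39 in replicates 2, 3 and 4. After a correction for length the same 2 members, Dusp5 and Dusp10, were called higher at 5 h. Over all 12483 genes tested with this correction, 153 were called higher and 41 lower. Ratios of replicate 1 at 1 and 5 h are therefore also given after a correction for length, which all 9 measured members have.

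The members lie on 10 different chromosomes (coordinates of mm10, GENCODE). Dusp5 is at chr19:53529109-53542431, Dusp6 at chr10:99263231-99267489, Dusp7 at chr9:106368632-106375724, Dusp9 at chrX:73639419-73643514, Dusp10 at chr1:184013302-184075636, Dusp2 at chr2:127336159-127338376 and Dusp4 at chr8:34807297-34819894, all on the plus strand. Dusp8 at chr7:142079490-142095843, Dusp16 at chr6:134715468-134792625 and Dusp1 at chr17:26505590-26562128 are on the minus strand. The model of Dusp1 is overlapped by 4 other genes, among them the protein-coding Ergic1 on the opposite strand, and Dusp5, Dusp8, Dusp10 and Dusp16 each share bases with 1 gene on the opposite strand. The strand setting of the counting was not given in the sources used here, so their counts are uncertain to that extent. The values below are counts over whole genes and do not separate exons, introns or UTRs.

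The 250 bases before the annotated start were available from RefSeq (GRCm38.p6) for 8 of the 10 members. Dusp4 and Dusp9 had no entry. Those of Dusp5 and Dusp10 are shown because these members had the highest fold changes at 5 h, and they shared none of the motifs searched. Capitals mark a match, on either strand, to 1 of 5 motifs: the AP-1 site (TGANTCA), the cyclic AMP response element (CRE, TGACGTCA), an ETS site (CCGGAAGT), the NF-kB site and the CArG box of the serum response element. No matches overlapped, and the CArG boxes of Dusp5 were directly adjacent.
Dusp5, chr19:53528895-53529144, plus strand: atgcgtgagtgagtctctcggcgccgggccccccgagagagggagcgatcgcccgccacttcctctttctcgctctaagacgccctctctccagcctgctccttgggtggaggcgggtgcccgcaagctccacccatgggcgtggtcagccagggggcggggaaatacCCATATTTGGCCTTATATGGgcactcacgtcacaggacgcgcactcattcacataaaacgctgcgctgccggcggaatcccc
Dusp10, chr1:184034131-184034380, plus strand: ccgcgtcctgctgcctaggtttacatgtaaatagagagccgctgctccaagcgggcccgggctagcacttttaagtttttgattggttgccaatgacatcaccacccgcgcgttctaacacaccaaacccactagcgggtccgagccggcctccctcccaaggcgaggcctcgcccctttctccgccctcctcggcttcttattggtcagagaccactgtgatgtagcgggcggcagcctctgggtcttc
The stretch of Dusp5 held 2 CArG boxes side by side, 82 and 72 bases before the start, and a CArG box was found in 1.47% of 32851 promoters. The stretch of Dusp10 held none of the 5 motifs. The RefSeq starts used for Dusp1, Dusp8 and Dusp10 lie inside the longer GENCODE models, so these windows fall within the models. The end of the Dusp5 window also runs into its model, while its CArG boxes lie before it.

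A CRE was found in Dusp1 and Dusp8, and in 1.55% of all promoters. These sites are shown, with 12 bases on each side, as the only other matches among the members.
Dusp1, 143 bases before the start: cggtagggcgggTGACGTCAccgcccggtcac
Dusp8, 107 bases before the start: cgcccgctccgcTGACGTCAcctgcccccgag
Dusp8, 63 bases before the start: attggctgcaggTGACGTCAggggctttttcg
Dusp2, Dusp6, Dusp7 and Dusp16 held no match to any of the 5 motifs. The AP-1 site was in 6.75%, the ETS site in 2.88% and the NF-kB site in 3.90% of all promoters. A match describes letters only, and no match leaves binding outside these windows unexamined.

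At 5 h after treatment (replicates 2 to 4, 3 against 3 libraries) Dusp5 and Dusp10 rose more than 4-fold, and the other 7 tested members had smaller positive fold changes that did not pass the test. All values below are read counts divided by the library's size factor (normalised counts), and fold changes are differences of log2(normalised count + 1), treated minus untreated. A gene was called at a Benjamini-Hochberg adjusted p under 0.05 by limma over all 13096 genes tested. By this rule 2 of 9 members were called higher and 0 lower, against a background of 0.97% of all tested genes called higher and 0.267% called lower. Among the other 7, the 95% interval of the fold change lay above 0 for Dusp6, Dusp8 and Dusp16. Libraries that share a replicate number deviated together, and with the replicate number as a block 7 of 9 members were called higher and 0 lower, against 17.9% and 19.3% of all genes. The 3 treated values all lay above the 3 untreated values for Dusp5, Dusp7, Dusp8, Dusp10 and Dusp16, so for 5 of 9 members, against 15.1% of all genes. The plot of normalised counts at 5 h shows each of these libraries.

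**Figure D1:**
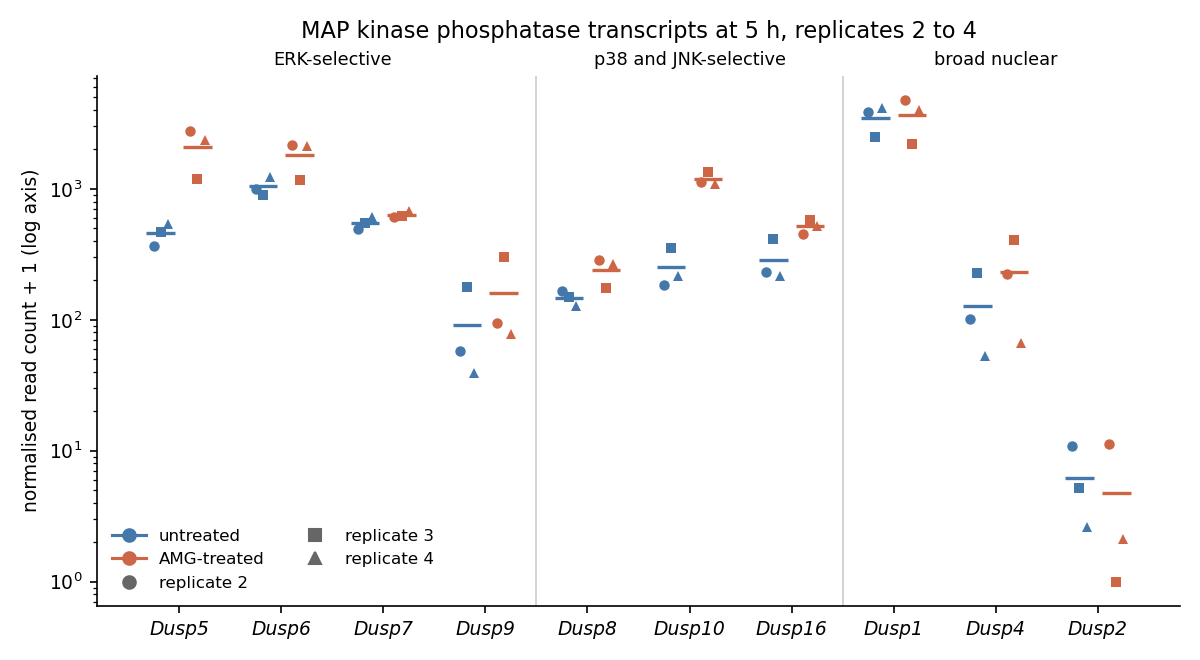
Normalised read count plus 1 (log axis) of each phosphatase at 5 h in replicates 2 to 4, untreated in blue and AMG-treated in orange, with the marker shape giving the replicate number and the bar the mean of 3 libraries. The groups stand clear of each other for Dusp5 and Dusp10, Dusp1 is at the same height in both, and Dusp4 and Dusp9 are highest in replicate 3 of either group.

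Among the ERK-selective members, Dusp5, the nuclear ERK phosphatase that also holds ERK in the nucleus, was at 367, 468 and 537 in untreated replicates 2, 3 and 4 and at 2780, 1188 and 2352 in the treated ones. Every treated library was above every untreated one, and treated replicate 3 was the lowest of its group. The log2 fold change was 2.13 ± 0.33 (SE, n = 3 per group), or 4.37-fold, with an adjusted p of 0.0414 by limma. The call held without treated replicate 3 (adjusted p = 0.00397). It was lost without any 1 of the other 5 libraries (adjusted p = 0.0764 to 0.194), and the log2 fold change stayed between 1.88 and 2.50 in these 6 fits. Of 22 alternatives 14 passed, with adjusted p-values between 2.39e-08 and 0.635.

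Dusp6, the cytoplasmic ERK phosphatase that serves as a common readout of ERK activity, was at 999, 905 and 1229 in untreated and at 2174, 1171 and 2140 in treated replicates 2, 3 and 4. Replicates 2 and 4 were about alike and well above the untreated range, and treated replicate 3 fell inside it. Its log2 fold change of 0.76 ± 0.26 (SE) did not pass (limma, adjusted p = 0.160). It passed with the replicate block (adjusted p = 0.00309), without treated replicate 3 (adjusted p = 0.0143) and in DESeq2 (adjusted p = 0.0492), within a range of 0.00251 to 0.719 over the alternatives.

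Dusp7, a further cytoplasmic ERK phosphatase, was at 496, 546 and 608 in untreated and at 613, 615 and 681 in treated libraries. The groups did not overlap, but the highest untreated and the lowest treated library were nearly level. The log2 fold change was 0.21 (95% interval -0.11 to 0.54, limma, adjusted p = 0.379). Dusp9, the cytoplasmic ERK phosphatase known from placenta, was at 57.2, 177 and 38.4 in untreated and at 94.1, 303 and 76.8 in treated libraries. Its groups overlapped because replicate 3 was 3-fold or more above the others in either group, while within each number the treated library was the higher. The log2 fold change of 0.82 ± 0.71 (SE) did not pass without the block (adjusted p = 0.511) and passed with it (limma, adjusted p = 0.0111, range over the alternatives 0.00833 to 0.834).

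Among the p38 and JNK-selective members, Dusp10, which acts on JNK and p38 in nucleus and cytoplasm, was at 184, 352 and 216 in untreated and at 1120, 1340 and 1080 in treated replicates 2, 3 and 4. The treated libraries were close to each other, and the groups lay far apart. Treatment raised it by 2.28 ± 0.25 (log2, SE), or 4.86-fold, with an adjusted p of 0.0190 by limma. Without treated replicate 3 or without untreated replicate 3 the call held (adjusted p = 0.0112 and 0.0151), and without any 1 of the other 4 libraries it did not (adjusted p = 0.0911 to 0.123), at log2 fold changes of 2.09 to 2.55 throughout. Of 22 alternatives 16 passed, with adjusted p-values between 2.16e-12 and 0.513. The study's text names Dusp10 among the genes it found changed in wounded fibroblasts, so this call is not independent evidence.

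Dusp16, a JNK phosphatase that moves between nucleus and cytoplasm, was at 229, 411 and 214 in untreated and at 453, 577 and 517 in treated libraries. The lowest treated library was above the highest untreated one, which was again replicate 3. Its log2 fold change of 0.91 ± 0.27 (SE, 1.88-fold) did not pass (limma, adjusted p = 0.125) and passed with the block (adjusted p = 0.00301, range over the alternatives 0.00170 to 0.719). Dusp8, a JNK and p38 phosphatase best known from brain and heart, was at 166, 148 and 127 in untreated and at 284, 175 and 264 in treated libraries. Treated replicate 3 was just above the untreated libraries and the other treated ones were clearly above. Its log2 fold change of 0.69 ± 0.24 (SE) did not pass (limma, adjusted p = 0.164). It passed with the block (adjusted p = 0.0187) and without treated replicate 3 (adjusted p = 0.0330), within a range of 0.0152 to 0.723.

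Among the broad nuclear members, Dusp1, the immediate-early phosphatase of p38, JNK and ERK, was the most abundant and had the smallest fold change. It was at 3860, 2505 and 4151 in untreated and at 4790, 2216 and 4035 in treated replicates 2, 3 and 4, so the groups spanned the same range. The log2 fold change was 0.03 with a 95% interval of -0.74 to 0.80 (limma, adjusted p = 0.965), and its sign turned under 6 alternatives. Dusp4 was at 101, 226 and 51.9 in untreated and at 223, 408 and 65.5 in treated libraries. As for Dusp9, replicate 3 was the highest of either group, the groups overlapped, and the treated library was the higher within each number. The log2 fold change of 0.77 ± 0.77 (SE) did not pass without the block (limma, adjusted p = 0.572) and passed with it (adjusted p = 0.0157, range over the alternatives 0.0101 to 0.889). Dusp2, known from activated immune cells, had 9, 3 and 3 reads in untreated and 8, 0 and 1 reads in treated libraries and was not tested. Apart from replicate 2 it was at or under the floor of 3 reads, so a difference was not detectable at this depth.

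The plot of fold changes sets the fits with and without the block beside the ratios of the single replicate numbers. Replicate 3 gave the lowest ratio of the 4 numbers for Dusp1, Dusp5, Dusp6, Dusp8 and Dusp16. Past 2-fold higher were 4, 2 and 4 of 9 members in replicates 2, 3 and 4, against 7.14%, 4.08% and 6.22% of all genes. Past 2-fold lower were 0 members in each, against 7.86%, 3.57% and 8.58%. In all 4 replicate numbers at 5 h, replicate 1 included, the ratio was above 0 for 8 of 9 members, all but Dusp1, against 15.7% of the 12844 genes measured in both tables. It was past 2-fold in all 4 for Dusp5 and Dusp10, against 1.71% of genes. Without replicate 1 the same 8 and the same 2 members met these criteria, against 32.1% and 2.2% of genes. The ratios of Dusp5 were 1.88, 2.92, 1.34 and 2.13 (log2) in replicates 1 to 4, and those of Dusp10 were 1.67, 2.60, 1.92 and 2.31.

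**Figure D2:**
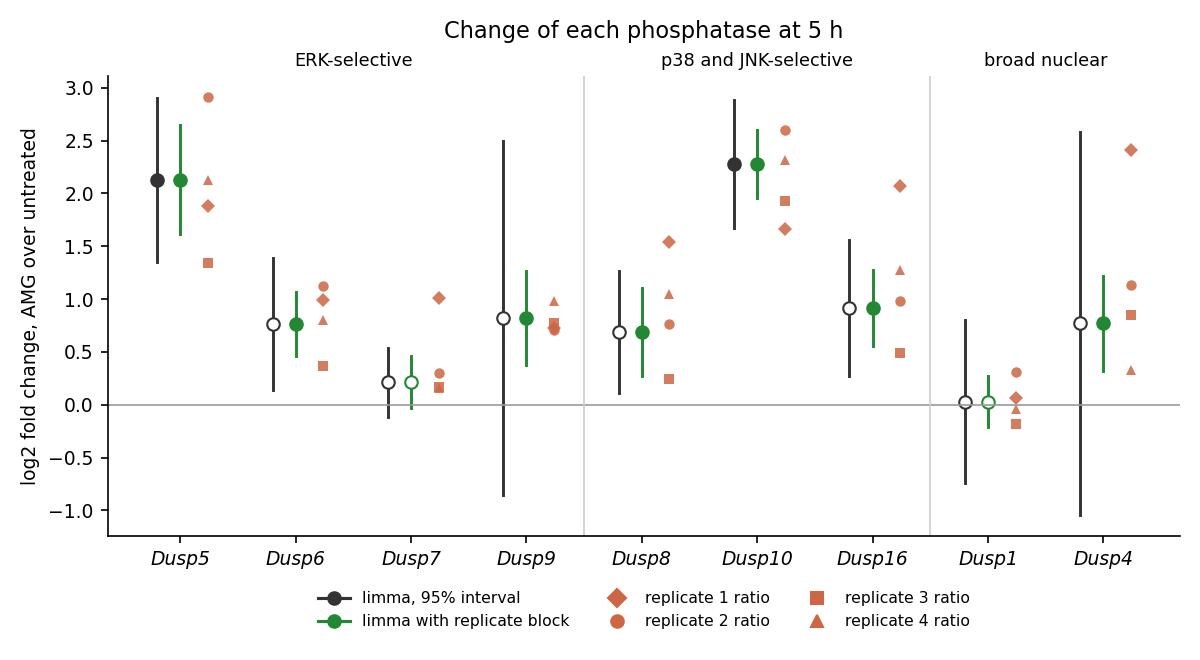
Log2 fold change of each tested phosphatase at 5 h, AMG-treated over untreated: the limma estimate with its 95% interval without (black) and with (green) the replicate block, filled where the adjusted p is under 0.05, and the ratio of each replicate number (orange). Dusp5 and Dusp10 stand near 2 in both fits, Dusp1 stands at 0, and the block narrows the intervals of Dusp4 and Dusp9 most visibly.

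The study design leads to the question whether the phosphatases of ERK moved differently from those of p38 and JNK, since the study is concerned with ERK signalling. At 5 h the median log2 fold change was 0.79 over the 4 ERK-selective members and 0.91 over the 3 p38 and JNK-selective members, beside -0.02 over all tested genes. In each class 1 member was called higher (Dusp5 and Dusp10), against 0.97% of all genes. With the block 3 of 4 and 3 of 3 were called higher, against 17.9% of all genes. The range was 0.21 to 2.13 in the ERK class and 0.69 to 2.28 in the p38 and JNK class. The median of the p38 and JNK class minus that of the ERK class was 0.67, 0.07, -0.08 and 0.38 (log2) in replicates 1 to 4 at 5 h. Its sign was not the same in all replicate numbers.

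Single members were also compared between the classes within each library, as the difference of their log2 normalised counts, for all 12 pairs of 1 p38 and JNK-selective and 1 ERK-selective member. With 3 against 3 libraries the smallest 2-sided exact permutation p is 0.1, so no pair could pass 0.05, and the smallest p adjusted over the 12 pairs was 0.343. In 9 of the 12 pairs the treated and untreated differences overlapped. Within replicate numbers 2, 3 and 4 the change had 1 sign in 7 of the 12 pairs, 4 of them among these 9. The shares of other gene pairs that meet these criteria were not computed. Of single genes, 15.1% lay higher and 13.6% lower in the treated libraries without overlap. The 12 pairs share members, so they are not independent of each other or of the fold changes above. Dusp10 gained on Dusp6 by 1.52 (log2) between the group means, and by 1.48, 1.55 and 1.51 in replicates 2, 3 and 4, without overlap. Dusp10 gained on Dusp7 by 2.07, also without overlap. Dusp8 lost 1.44 against Dusp5, without overlap. The 4 overlapping pairs with 1 sign were Dusp10 against Dusp9 (1.89, 1.15 and 1.33), Dusp16 against Dusp5 (-1.93, -0.85 and -0.86), Dusp16 against Dusp7 (0.68, 0.32 and 1.11) and Dusp8 against Dusp7 (0.46, 0.08 and 0.89). Dusp10 and Dusp5 differed by 0.15, with -0.32, 0.58 and 0.19 in the single replicates.

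The members differed widely in level. Per kb of exonic length, the untreated order at 5 h (replicates 2 to 4) began with Dusp1 at 1059 ± 265 (SD, n = 3 here and for the levels that follow) normalised counts, then Dusp6 at 333 ± 53.2, Dusp5 at 185 ± 34.5 and Dusp7 at 164 ± 16.7. Dusp10 followed at 82.4 ± 29.4. Dusp4, Dusp16, Dusp9 and Dusp8 lay between 30.2 and 46.1, and Dusp2 was last at 2.61. The levels of Dusp5 and Dusp7 overlapped, as did each neighbouring pair from Dusp10 down to Dusp8. The other neighbours were clear of each other.

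In the treated libraries Dusp1 stood at 1112 ± 400 per kb, Dusp5 at 852 ± 333, Dusp6 at 584 ± 182 and Dusp10 at 388 ± 46.1. Each of these overlapped with the next, so Dusp5 had come up into the range of the leading members. Dusp10 overlapped with Dusp6 through replicate 3 only. Its ratio to Dusp6 was 0.53, 1.18 and 0.52 in treated replicates 2, 3 and 4. Dusp7 at 190 ± 11.5 was clear of Dusp10 above and of Dusp4 below. Dusp4, Dusp16, Dusp9 and Dusp8 lay between 49.5 and 84.7 per kb and overlapped in turn.

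The make-up of the summed phosphatase level per kb shifted accordingly, as the plot of class shares shows. The ERK-selective members made up 32.3% to 40.4% of the sum in the untreated and 45.6% to 52.0% in the treated libraries of replicates 2 to 4. The p38 and JNK-selective members made up 5.66% to 11.4% and 12.0% to 21.9%. The broad nuclear members, mostly Dusp1, went from 48.2% to 61.4% down to 32.5% to 37.8%. The groups did not overlap in any of the 3 shares, and with 3 against 3 libraries an exact permutation test cannot go below 0.1. The 3 shares are parts of 1 whole, so they are not separate results. The mean normalised count of Dusp1 was 3505 in untreated and 3680 in treated libraries. The smaller broad nuclear share thus came without a lower mean level of Dusp1. In replicate 1 the ERK-selective share was 43.5% in the untreated and 67.6% in the treated library at 1 h, where Dusp5 alone held 48.3%. At 24 h the ERK-selective share was 55.0% and 50.8%, and the p38 and JNK-selective share was 10.2% and 21.3%, of which Dusp10 held 17.1%. Per kb, Dusp1 was the most abundant member in 12 of the 14 libraries. Dusp5 led in the treated library at 1 h and Dusp6 in the treated library at 24 h. The lead of Dusp6 depends on the lengths used, since the normalised counts there were 2096 for Dusp1 and 2088 for Dusp6. The length of Dusp1, 3311 bases, is that of a GENCODE model that reaches far beyond its RefSeq start. Its levels per kb and the broad nuclear shares may therefore be too low.

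**Figure D3:**
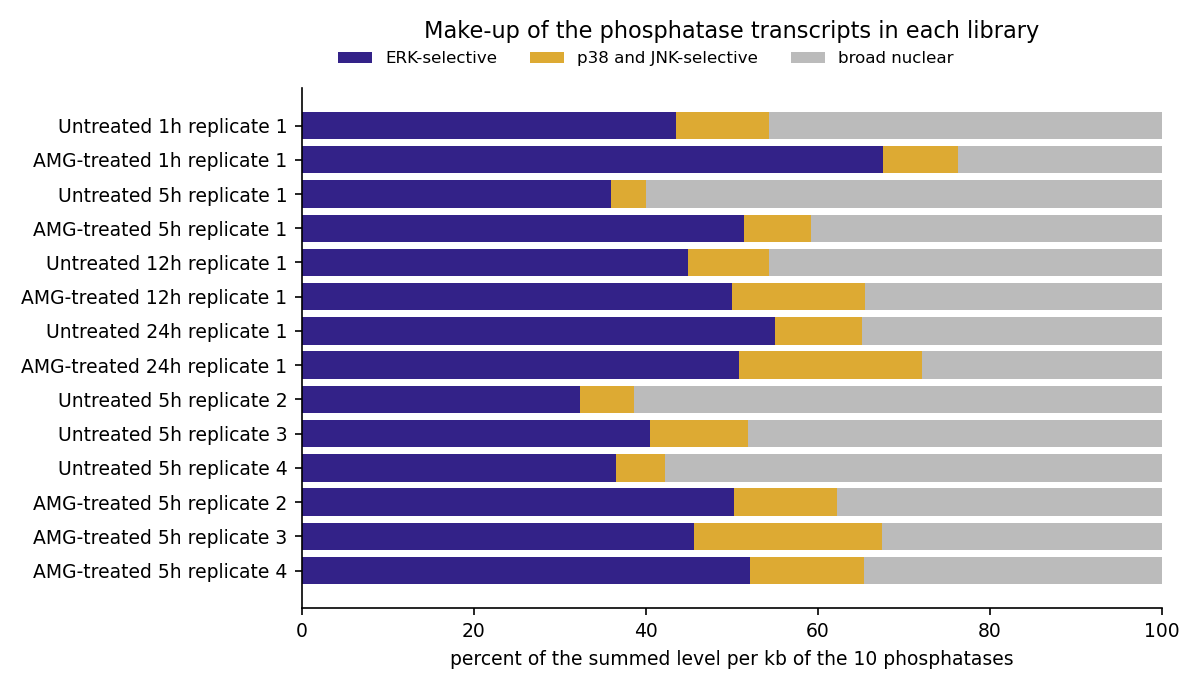
Share (percent) of the summed normalised count per kb of the 10 phosphatases held by the ERK-selective (dark), the p38 and JNK-selective (yellow) and the broad nuclear members (grey) in each of the 14 libraries. At 5 h the grey part is shorter in each treated library than in the untreated library of its number, and the dark part is longest in the treated 1 h library at 67.6%.

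In replicate 1, with 1 library per group and time and so no replicate check, the counts of members past 2-fold higher were 4, 6, 4 and 2 of 9 at 1, 5, 12 and 24 h. None was past 2-fold lower at any time. Over all genes 11.3%, 13.3%, 5.93% and 6.05% were past 2-fold higher at these times, and 10.7%, 12.6%, 6.9% and 8.05% past 2-fold lower. After the length correction 4 members were past 2-fold higher at 1 h, with Dusp16 in place of Dusp10, and 8 at 5 h, where Dusp6 and Dusp9 joined. None was past 2-fold lower. The shares of all genes were then 6.3% higher and 10.6% lower at 1 h, and 11.8% and 8.19% at 5 h. Intervals given with these log2 ratios are exact 95% intervals that cover counting error only. Dusp1, Dusp5, Dusp6, Dusp10 and Dusp16 were above 0 at all 4 times, so 5 of 9 against 7.22% of genes, and Dusp10 was past 2-fold at all 4 times, against 0.956%, though not at 1 h after the length correction. The levels over time show the order in which members peaked, and the plot of ratios over time shows the same data as log2 ratios.

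**Figure D4:**
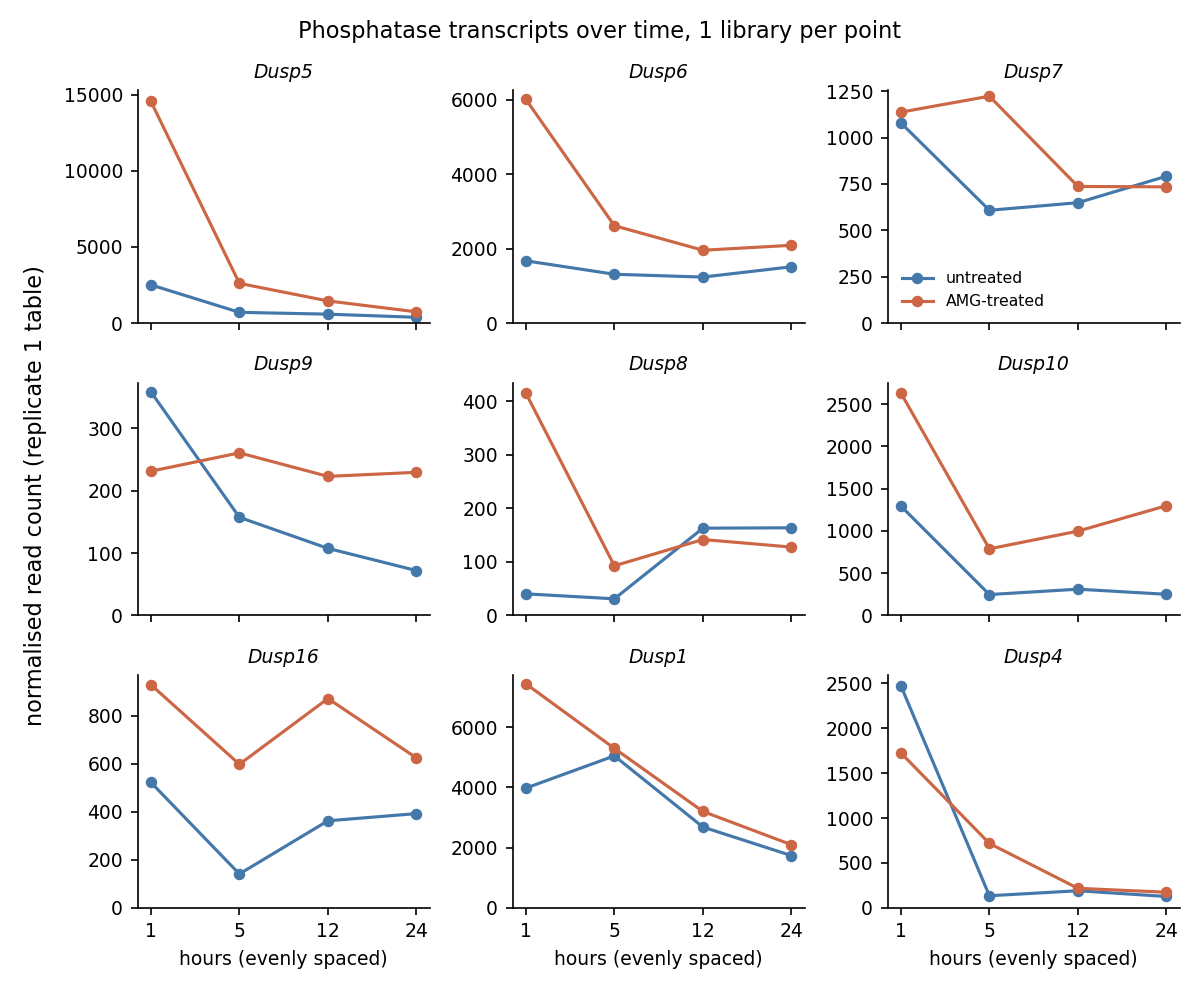
Normalised read count of 9 phosphatases in replicate 1 at 1, 5, 12 and 24 h, untreated in blue and AMG-treated in orange, 1 library per point, with the times evenly spaced on the axis. Dusp1, Dusp5, Dusp6, Dusp8, Dusp10 and Dusp16 are highest in the treated 1 h library, and the lines cross for Dusp4, Dusp7, Dusp8 and Dusp9.

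Dusp5 in replicate 1 was at 2510, 706, 588 and 381 in the untreated libraries at 1, 5, 12 and 24 h, and at 14554, 2607, 1456 and 739 in the treated ones. Both series were highest at 1 h and lowest at 24 h, and the treated library was the higher at each time. The log2 ratio was 2.54 (2.47 to 2.60), 1.88, 1.31 and 0.95. After the length correction it was 2.12 and 2.29 at 1 and 5 h, so the order of these times turned with the correction, while 12 and 24 h stayed lower at 1.39 and 0.84.

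Dusp6 was at 1672, 1311, 1235 and 1512 in the untreated and at 6004, 2614, 1956 and 2088 in the treated libraries. The untreated level changed little over time and the treated level was highest at 1 h. Its log2 ratio was 1.84, 0.99, 0.66 and 0.47, and 1.61 and 1.23 at 1 and 5 h after the length correction, so the order of times was kept. Dusp7 had log2 ratios of 0.08, 1.01, 0.18 and -0.11. It was past 2-fold at 5 h only, where the untreated library is the one with the high ribosomal protein share, and in replicates 2 to 4 its ratios at 5 h were 0.31, 0.17 and 0.16. After the length correction Dusp7 was at -0.11 at 1 h, with the sign turned, and at 1.19 at 5 h. Dusp9 ran the other way from Dusp5: it was at 359, 157, 108 and 72.0 in untreated and at 231, 261, 223 and 230 in treated libraries. The treated level was nearly flat while the untreated level was lower at each later time. The log2 ratio of Dusp9 was -0.63 (-0.93 to -0.35), 0.72, 1.04 and 1.66 (1.33 to 2.03), and the length correction gave -0.97 at 1 h and 1.06 at 5 h, the latter past 2-fold.

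Dusp10 was at 1295, 248, 311 and 250 in untreated and at 2633, 788, 998 and 1299 in treated libraries of replicate 1. The untreated level was high at 1 h and flat from 5 h on, and the treated level at 24 h was above that at 5 and 12 h. Its log2 ratio was 1.02 (0.92 to 1.13), 1.67, 1.68 and 2.37 (2.20 to 2.55), the highest of the members at 24 h. After the length correction the value at 1 h was 0.77, below 2-fold, and that at 5 h was 1.92. Dusp16 was at 522, 141, 362 and 392 in untreated and at 929, 597, 871 and 624 in treated libraries, with log2 ratios of 0.83, 2.08, 1.26 and 0.67. Its low untreated value of 86 reads at 5 h goes with its highest ratio. The length correction gave 1.05 for Dusp16 at 1 h, past 2-fold, and 1.77 at 5 h. Dusp8 was at 40.4, 31.1, 163 and 164 in untreated and at 416, 92.8, 142 and 128 in treated libraries. The treated library was about 10-fold above the untreated one at 1 h, with 239 against 46 reads, and below it at 12 and 24 h. The log2 ratio was 3.33 (2.90 to 3.85), 1.55, -0.20 and -0.36 (-0.68 to -0.05), and the length correction gave 3.39 and 1.49 at 1 and 5 h.

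Dusp1 was at 3978, 5048, 2684 and 1735 in untreated and at 7442, 5296, 3202 and 2096 in treated libraries. Its log2 ratio was 0.90 (0.84 to 0.96) at 1 h and 0.07, 0.25 and 0.27 at the later times, with 0.71 and 0.27 at 1 and 5 h after the length correction. Dusp4 was at 2472, 134, 190 and 126 in untreated and at 1725, 717, 217 and 174 in treated libraries. Its level in the untreated library was far higher at 1 h than at any later time. The log2 ratio of Dusp4 was -0.52 (-0.63 to -0.41), 2.41 (2.09 to 2.76), 0.19 and 0.46 at these times, and -0.85 and 2.74 at 1 and 5 h after the length correction. In replicates 2 to 4 its ratio at 5 h was 1.13, 0.85 and 0.33, all below that of replicate 1. Dusp2 had 1 to 3 reads in all 8 libraries of replicate 1, and no ratio is given.

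**Figure D5:**
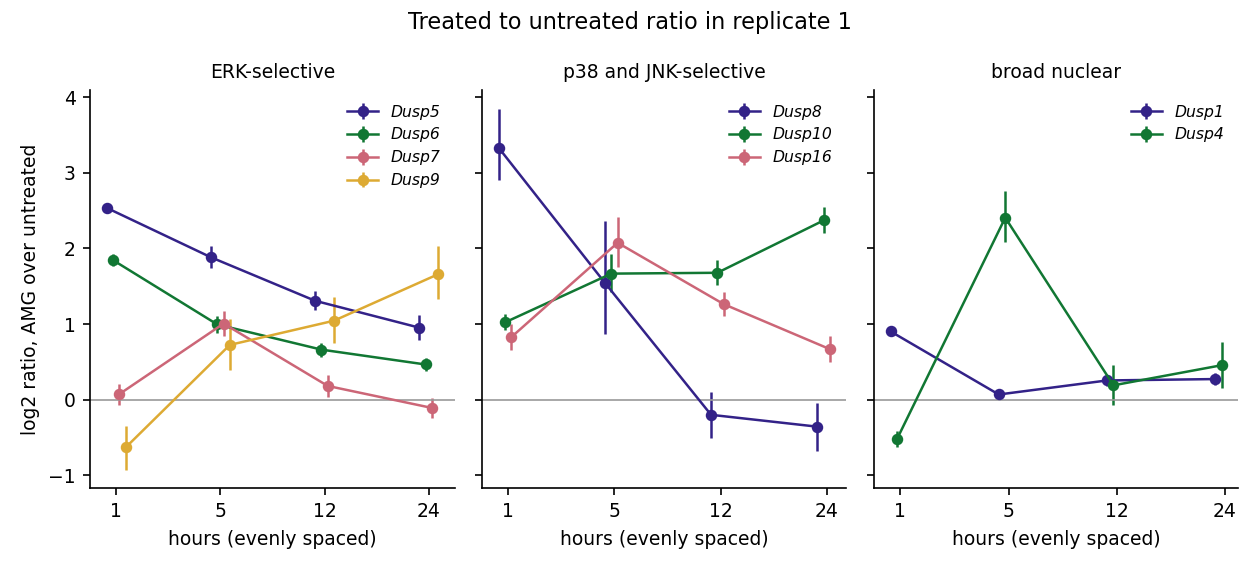
Log2 ratio of AMG-treated to untreated in replicate 1 at 1, 5, 12 and 24 h for the ERK-selective, the p38 and JNK-selective and the broad nuclear members, with exact 95% counting intervals as bars and the times evenly spaced. Dusp5 and Dusp6 go down over time, Dusp10 and Dusp9 go up, Dusp8 goes from 3.33 to below 0, and Dusp4 peaks at 5 h at 2.41.

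By class, the median log2 ratio in replicate 1 was 0.96, 1.00, 0.85 and 0.71 for the ERK-selective members at 1, 5, 12 and 24 h, and 1.02, 1.67, 1.26 and 0.67 for the p38 and JNK-selective members. The median over all genes was -0.06, -0.01, -0.01 and 0.02 at these times. The difference between the class medians (p38 and JNK minus ERK) was 0.06, 0.67, 0.41 and -0.04, and with 1 library per group it has no test. The length correction moved the ERK median to 0.75 at 1 h and to 1.21 at 5 h. At 24 h each of these classes held 1 member past 2-fold higher, Dusp9 and Dusp10, against 6.05% of all genes.

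The kinases around the phosphatases were followed at 5 h in the same fit (replicates 2 to 4, limma, adjusted over all genes). Over all tested genes 0.97% were called higher and 0.267% lower, 23.1% had an unadjusted p under 0.05, and the block gave 17.9% higher and 19.3% lower. These shares stand behind each list. Of 9 tested MAP kinases 0 were called, although 4 reached an unadjusted p under 0.05. The block gave 4 higher and 0 lower. The smallest unadjusted p was that of the p38 kinases Mapk11 and Mapk13, with log2 fold changes of 0.89 ± 0.25 (SE) and 0.94 ± 0.31 (adjusted p = 0.116 and 0.150; with the block 0.00360 and 0.000395). The median over the list was 0.19. Of 18 upstream kinases 0 were called, and an unadjusted p under 0.05 was found for 3. The block gave 3 higher and 3 lower. Both counts are near the share of all genes. Their leading members were Map3k8, a kinase upstream of ERK in inflammatory signalling, at 1.90 ± 0.38 (adjusted p = 0.0708), and Braf at -0.68 ± 0.13 (adjusted p = 0.0630). Of 10 kinases downstream of MAP kinases 0 were called, and an unadjusted p under 0.05 was found for 6. The block gave 4 higher and 5 lower. Among them Mapkapk2, a p38 substrate kinase, was at 0.52 ± 0.14 and Rps6ka5 at -1.37 ± 0.33 (adjusted p = 0.110 and 0.0936).

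Lists of transcripts known to respond to these pathways held 6 called genes. Of 16 ERK-responsive transcripts 4 were called higher and 0 lower: Ier3 (log2 fold change 3.32), Phlda1 (1.69), Fosl1 (1.37) and Myc (0.78), all 4 with an adjusted p between 0.0190 and 0.0438 by limma, against 0.97% of all genes called higher and 0.267% lower. With the block, where 17.9% of all genes were called higher and 19.3% lower, 7 were called higher and 2 lower, and the list's median was 0.39. Of 11 p38 and JNK-responsive transcripts 2 were called higher and 0 lower: the cytokine gene Il6 (6.72) and the prostaglandin synthase gene Ptgs2 (1.61). Their adjusted p-values by limma were 0.0402 and 0.0190. The untreated level of Il6 was low, at 9.63 ± 13.4 normalised counts (SD, n = 3), so the size of its fold change depends on the added 1. With the block 7 were called higher and 1 lower, against the same shares of all genes, and the median was 0.91. Fosl1 and Ptgs2 are named in the study's text as changed in these cells, and several of these transcripts respond to more than 1 MAP kinase. Both lists were also chosen with earlier results of these data known, so none of the 6 called genes is independent evidence.

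Phosphatases of MAP kinases outside the 10 members held no called gene, where 0.97% of all genes were called higher and 0.267% lower. Of 9 tested atypical dual-specificity phosphatases, most of which lack the kinase-binding domain of the members, 0 were called and 0 reached an unadjusted p under 0.05. With the block Dusp12 and Dusp14 were called higher (limma, adjusted p = 0.0335 and 0.0431). Their log2 fold changes were 0.43 ± 0.19 and 0.46 ± 0.46, with the SE of the fit without the block. Of 4 tested tyrosine and serine/threonine phosphatases that act on MAP kinases 0 were called and 0 reached an unadjusted p under 0.05. With the block Ppm1b was called higher (limma, adjusted p = 0.0395), at 0.32 ± 0.16, again with the SE of the fit without it. With the block 17.9% of all genes were called higher and 19.3% lower. In lists of 9 and 4 genes, the counts with and without the block are near the shares of all genes. The medians were 0.06 and -0.03, beside 0.77 over the 9 tested members.

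Over the 8 libraries of replicate 1, the genes whose log2 level was most like that of Dusp5 were Rbbp8, Vps37b and Spry2, with a Pearson r of 0.98 for each. Spry2, a feedback inhibitor upstream of ERK, had a log2 fold change of 1.19 at 5 h in replicates 2 to 4 (limma, adjusted p = 0.127), Vps37b 1.38 (adjusted p = 0.0955) and Rbbp8 0.25 (adjusted p = 0.401). Most like Dusp10 were Plekhh1, Ccno and Ets2, with r of 0.97, 0.96 and 0.96 and log2 fold changes of 1.09, 0.70 and 0.65 at 5 h, none of which passed. These correlations are descriptions over 8 libraries that share their times and their table, chosen as the highest of 13498 genes.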

How the data were processed

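RNA from scratch-wounded mouse fibroblasts was sequenced in earlier work, and the study reused these data. Its methods describe stranded poly(A) libraries for its own sequencing, and the same protocol was assumed here. Per the labels the data were processed with FastQC 0.11.5, TopHat2 2.0.13 on mm10, SAMtools, HTSeq 0.5.3p3 and DESeq. The annotation release and strand setting are not given in the sources used here. What the authors deposited is a normalised signal, each library's read count per gene over a DESeq size factor, computed in a table of 8 libraries (replicate 1) and, separately, in a table of 6 (replicates 2 to 4), so levels were not compared across tables. Dividing by the value of 1 read gave whole reads for 100% of values (tolerance 0.1). The floor was 3 reads, or 1.62 to 5.22 normalised counts, and covers counting error only, since reads carry no molecular identifiers. No row lacked a gene name.

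limma 3.58.1 in R 4.3.3 (lmFit, eBayes with a trend) compared 3 treated with 3 untreated libraries at 5 h on log2(normalised count + 1), for 13096 genes with a mean of at least 10, with Benjamini-Hochberg adjustment over all of them. This scale understates changes of low genes. Deviations from the group means correlated within replicate numbers 2, 3 and 4 (r = 0.65, 0.76 and 0.70) and not between numbers (-0.59 to 0.12). The numbers thus pair the libraries by the data alone, and a fit with a replicate block stands beside the main one. edgeR 4.0.16 called 107 genes higher and 28 lower on the whole reads, limma 127 and 35, and edgeR called the same 2 members. DESeq2 1.42.0 called 3 members, Dusp6 in addition. In replicate 1 a log2 ratio past 1 was counted as past 2-fold. The length correction removed the trend of log2 ratios with exonic length, known for 95.3% of tested genes.

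All 10 members are named. Of each pathway list at most 4 called genes were named, or, with none called, the 2 with the smallest unadjusted p, and for each called member the 3 genes most correlated with it. The members and lists were chosen with earlier results of these data known. The check without replicate number 1 was added after seeing the data.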

Additional observations from a re-analysis of the deposited data

Results flagged for a closer look

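In replicate 1 the treated to untreated log2 ratio changed sign between times, beyond counting error, for 3 members. Dusp4 stood at -0.52 at 1 h, at 2.41 at 5 h and at 0.46 at 24 h. Dusp8 stood at 3.33 at 1 h, at 1.55 at 5 h and at -0.36 at 24 h. Dusp9 stood at -0.63 at 1 h, at 0.72 at 5 h, at 1.04 at 12 h and at 1.66 at 24 h. With 1 library per group and time the differences between times were not tested.

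Dusp7 at 5 h had a log2 ratio of 1.01 in replicate 1, which lay apart from those of replicates 2 to 4: the gap to the next value was 0.832 of the whole range, just above Dixon's 95% critical value for 4 samples. The 9 tested members were searched for such values, and chance marks about 1 in 20. The untreated 5 h library of replicate 1 has the high ribosomal protein share of 6.33%, and its part in this ratio was not tested.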

How the results depend on the processing

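The count of members called at 5 h was 2, and it was 7 with the replicate block in limma, 7 with the block in edgeR and 7 with the block and the length correction. It was 1 without the trend (Dusp10) and 3 in DESeq2 (Dusp6 in addition). It ranged from 0 to 5 when libraries or replicate numbers were left out: 4 without treated replicate 3 (Dusp5, Dusp6, Dusp8, Dusp10), 5 without replicate number 3 (also Dusp16), 1 without untreated replicate 3, and 0 without any other library or number. Over all genes the limma count went from 127 higher and 35 lower to 2345 and 2527 with the block. With block and length correction it was 2073 and 2168, and without the trend 56 and 24. Without treated replicate 3 it was 1146 and 1053, and without number 3 it was 1460 and 1341. Leaving out untreated replicate 3 gave 41 and 18. Without untreated replicate 2 or 4, 10 or 9 were higher and 0 lower. Without treated replicate 2 or 4, 1 or 6 were higher and 0 lower. It was 0 and 0 without number 2 or 4 (968 and 885 genes at an unadjusted p under 0.05). DESeq2 gave 861 and 579, and edgeR with the block 2416 and 2436. The member counts thus rose and fell with the count over all genes. The ERK-selective median at 5 h ranged from 0.63 to 1.06 with 1 library left out, the highest without untreated replicate 3. In replicate 1 the length correction moved it to 0.75 at 1 h and 1.21 at 5 h. The fold change of Dusp1, 0.03, turned to -0.060 with the length correction, with or without the block, and ranged from -0.20 to 0.36 with 1 library left out, below 0 without untreated replicate 3 (-0.19), treated replicate 2 (-0.20) or treated replicate 4 (-0.072). Without number 2 it was -0.11. The block changed no call of Dusp1, Dusp5, Dusp7 or Dusp10. The cause of these changes was not tested. Of 198 single-member values from fits at 5 h, 157 kept direction and side of the threshold, 21 newly passed, 14 no longer passed, and 6 changed sign (those of Dusp1). Of 144 replicate 1 ratios, 131 moved by less than their counting interval. Depth left Dusp2 untested, with 0 to 9 reads per library, and it also limits single ratios of other members. In replicate 1 at 5 h, Dusp8 was counted as past 2-fold with 19 untreated reads. Its counting interval of 0.87 to 2.36 spans the log2 ratio of 1 used for that. In replicate 4 at 5 h, Dusp4 had 96 untreated and 58 treated reads and an interval of -0.16 to 0.82.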
